A study of Mus musculus with 21 samples.

Results

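The genes described here are 32 genes of glycolysis and of the response to low oxygen, taken by symbol from a table of 17164 genes. They comprise the glycolytic enzymes, the glucose and lactate transporters, 2 enzymes that set the activity of phosphofructokinase, the HIF subunit gene Hif1a, the oxygen-sensing prolyl hydroxylase genes Egln1 and Egln3, and a set of targets of the hypoxia-inducible factor HIF. All 32 were in the table, and all 32 were among the 16797 genes with enough reads to test. They were measured by RNA sequencing of mouse retinal ganglion cells, the neurons that send the optic nerve, sorted from C57BL/6 mice at day 3 after crush of the nerve. The cells had received guide RNAs against ATF3, ATF4, CEBPG or CHOP (the product of Ddit3), transcription factors of the stress response, or served as control. All groups thus share strain, injury and time, and the cells of all groups were sorted. There were 5 ATF3, 2 ATF4, 4 CEBPG and 5 CHOP knockout libraries and 4 controls, from mice aged 6 to 7 weeks in the submitters' sheet. The ATF3, CEBPG and CHOP knockouts were female mice of batch 3 in that sheet, the ATF4 knockouts were of batch 1, with replicate 1 listed as female and replicate 3 as male, and the controls were male mice of batch 2. ATF4 replicates 1 and 3 both had reads of the Y-linked gene Ddx3y (61.5 and 64.6 CPM, against 46.5 to 107 CPM in controls) and nearly none of the female-specific Xist (0.260 and 0 CPM, against 0.0893 to 2.88 CPM in controls), so replicate 1 goes against its listed sex. Knockout and batch therefore cannot be told apart in any comparison with control, nor can sex where ATF3, CEBPG or CHOP knockouts are compared with control, whereas the knockouts of batch 3 can be set against each other within 1 batch and 1 sex. Neither the gate of the sort nor the number of mice behind a library is stated in the labels. The p-values therefore measure the spread between libraries, part of which may be technical.

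Glycolysis splits glucose into pyruvate in steps run by hexokinase, phosphofructokinase, aldolase and the enzymes that follow, and lactate dehydrogenase interconverts pyruvate and lactate. HIF, a dimer of HIF1A or EPAS1 with ARNT, accumulates when oxygen is low, because the prolyl hydroxylases of the Egln family no longer mark it for destruction, and it raises the transcription of most glycolytic genes by binding the letters ACGTG or GCGTG. In the retina, photoreceptors are known for making lactate from glucose even in the presence of oxygen, with Hk2, Pkm and Ldha among the genes they use, while neurons of the inner retina are known to rely more on respiration.

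Promoters of the 32 genes were examined for these letters, in RefSeq windows (GRCm38.p6) that run from 250 bases before to 50 bases after each transcript start. Of the 32 genes, 31 matched the table (Slc2a3 did not), and 22 of these (71.0%) had ACGTG on either strand, against 21.8% of 27025 genes in the table. GCGTG was present in 21 of the 31 (67.7%), against 35.2% of all genes. The composite site TGATGNAA, read by dimers of ATF4 with C/EBP proteins, was in 0 of the 31, against 4.51% of all genes, and the cyclic AMP response element TGACGTCA was in 1 of 31, Ldha (3.23%), against 2.03% of all genes. Of the 9 genes lower than control in at least 3 of the 4 knockouts 7 had ACGTG, as did 3 of the 6 matched genes among the 7 that were higher in at least 3. A match describes the letters in the window, and no match says nothing about the factor.

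Windows are shown for Hk2 and Ldha, which were lower than control in all 4 knockouts, and for Bnip3 and Ldhb, which were higher in all 4, each 5′ to 3′ on the strand of its gene. Capitals mark ACGTG on either strand (CACGT is its reverse complement, and CACGTG holds it on both strands).
Hk2 (chr6:82774405-82774704, minus strand): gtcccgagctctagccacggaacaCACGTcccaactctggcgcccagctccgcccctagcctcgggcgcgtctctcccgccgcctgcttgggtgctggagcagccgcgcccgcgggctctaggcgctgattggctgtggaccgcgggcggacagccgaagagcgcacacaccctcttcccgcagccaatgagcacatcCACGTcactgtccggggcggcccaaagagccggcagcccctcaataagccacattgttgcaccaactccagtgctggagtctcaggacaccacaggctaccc
Ldha (chr7:46845554-46845853, plus strand): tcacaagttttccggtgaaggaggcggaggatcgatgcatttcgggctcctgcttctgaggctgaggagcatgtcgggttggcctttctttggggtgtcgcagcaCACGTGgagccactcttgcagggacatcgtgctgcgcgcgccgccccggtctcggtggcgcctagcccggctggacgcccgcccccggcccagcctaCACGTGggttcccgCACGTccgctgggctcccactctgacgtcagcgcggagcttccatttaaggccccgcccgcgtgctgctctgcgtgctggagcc
Bnip3 (chr7:138909457-138909756, minus strand): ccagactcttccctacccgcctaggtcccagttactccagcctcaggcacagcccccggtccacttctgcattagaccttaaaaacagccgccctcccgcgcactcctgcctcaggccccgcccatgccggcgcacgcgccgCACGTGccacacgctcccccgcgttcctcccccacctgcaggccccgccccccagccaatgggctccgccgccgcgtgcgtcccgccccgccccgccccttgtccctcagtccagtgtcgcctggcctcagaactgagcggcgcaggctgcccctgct
Ldhb (chr6:142507908-142508207, minus strand): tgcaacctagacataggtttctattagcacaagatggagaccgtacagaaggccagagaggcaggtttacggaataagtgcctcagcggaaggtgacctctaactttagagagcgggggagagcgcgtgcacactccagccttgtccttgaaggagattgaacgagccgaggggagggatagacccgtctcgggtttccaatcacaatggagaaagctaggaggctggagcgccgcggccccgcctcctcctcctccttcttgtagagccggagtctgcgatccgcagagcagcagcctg
The Ldha window shown has 5 matches, those of Hk2 and Bnip3 have 2 each, and the Ldhb window has none. Each CACGTG was counted on both strands, as in the Ldha and Bnip3 windows. The 2 matches of Bnip3 thus lie in the same CACGTG, while those of Hk2 lie apart. Another Ldha window, chr7:46846832-46847131, has no match. In the Ldha window shown the element tgacgtca lies between the last capitals and the transcript start.

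Counted reads ran from 25267560 to 32776378 in the ATF3, 11929692 to 12404601 in the ATF4, 9000250 to 29810987 in the CEBPG and 14272784 to 31543917 in the CHOP knockouts, and from 6401446 to 11752828 in the controls. Levels are given as CPM, counts scaled to library size with TMM factors. Atf3 stood at 30.6 to 48.1 CPM in ATF3 knockouts and 104 to 125 CPM in controls, Atf4 at 148 and 159.7 CPM in ATF4 knockouts and 216 to 387 CPM in controls, and Ddit3 at 57.5 to 72.6 CPM in CHOP knockouts and 75.4 to 109 CPM in controls. Cebpg did not pass the test in CEBPG knockouts (49.2 to 92.4 CPM, against 74.6 to 93.6 CPM in controls, adjusted p = 0.491), and transcript counts do not show whether a protein was lost. Within the CEBPG group, replicate 6 lay farthest from its group of all 20 libraries, with a median absolute deviation of 0.34 log2 units over all genes. CEBPG replicate 8 lay 0.29 away, and control replicate 7 lay as far from its own group, at 0.29. Results that rest on CEBPG replicates 6 and 8 are given without them too. Control 7 was left out only singly, as each library was. The 12 ganglion cell markers held 0.0682% ± 0.000896 of reads in ATF3, 0.0656% ± 0.00305 in ATF4, 0.0510% ± 0.00442 in CEBPG and 0.0574% ± 0.00486 in CHOP knockouts, against 0.0575% ± 0.00716 in controls (SD), with Nefl the most abundant. Against control, 3 of these 12 markers were higher and 5 lower in ATF3 knockouts, and 5 and 0 in ATF4 knockouts. In CEBPG knockouts 1 was higher and 5 lower, and in CHOP knockouts 2 and 4. Their median log2 fold changes were -1.08, 0.69, -0.52 and -0.65 in ATF3, ATF4, CEBPG and CHOP knockouts. Markers of rods, the photoreceptors of dim light, held 0.477% ± 0.0127, 0.480% ± 0.0683, 0.486% ± 0.115 and 0.822% ± 0.160 of reads (knockouts in the same order), against 4.89% ± 1.03 in controls. All 15 rod genes were lower in each knockout. Amacrine markers ran the other way, with 0.600% ± 0.0115, 0.474% ± 0.0558, 0.390% ± 0.0352 and 0.746% ± 0.0480 of reads, against 0.205% ± 0.0513 in controls. In every group the ganglion cell markers thus held a smaller share of reads than the rod or the amacrine markers. The levels given here are those of the sorted samples and were not assigned to a cell type. In such bulk samples fewer cells of a type and less RNA per cell cannot be told apart.

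The first question was how the glycolysis and hypoxia genes differed between each knockout and control. Glycolysis did not move as a block: a few isoforms and 1 transporter, Slc16a1, were lower in all knockouts, some partner isoforms were higher, and the middle of the pathway differed from knockout to knockout. Lower than control in all 4 knockouts were 6 genes, Hk1, Hk2, Pfkp, Ldha, Slc16a1 and Pfkfb2, and higher in all 4 were 3, Pfkm, Ldhb and Bnip3. A further 5, Gpi1, Aldoa, Aldoc, Gapdh and Eno2, were higher in some knockouts and lower in others. All knockouts were compared with the same 4 controls, so these shared directions are not independent of each other. The shares of all tested genes called in all 4 knockouts are not given here. Whether the counts of 6 and 3 are unusual was therefore not tested.

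In ATF3 knockouts 7 of the 32 genes were higher (21.9%, where 18.6% of all tested genes were higher) and 10 were lower (31.2%, where 14.8% of all were lower), with a median log2 fold change of -0.06 against 0.06 over all genes. In ATF4 knockouts 13 were higher (40.6%, against 16.6% of all genes) and 7 lower (21.9%, against 14.6%), with a median of 0.24 against 0 over all genes. In CEBPG knockouts 6 were higher (18.8%, against 18.3%) and 18 lower (56.2%, against 15.0%), with a median of -0.45 against 0.06. In CHOP knockouts 8 were higher (25.0%, against 18.1%) and 9 lower (28.1%, against 15.4%), with a median of -0.0049 against 0.01 over all genes. The shares of higher genes in ATF3 and CEBPG knockouts were thus near those of all genes, while the share of lower genes in CEBPG knockouts was the farthest from its background. With both CEBPG replicates 6 and 8 left out, Gpi1, Gapdh, Pfkfb3 and Adm were no longer called in CEBPG knockouts (adjusted p = 0.515, 0.0934, 0.0865 and 0.0897), and Slc2a3 was called higher (adjusted p = 0.00776). With any single library left out, 16 of the 17 calls in ATF3, 12 of 20 in ATF4, 21 of 24 in CEBPG and 16 of 17 in CHOP knockouts were kept each time. Markers of Müller glia, the supporting glia of the retina, moved with some of these comparisons. They held 1.26% to 1.44% of reads in ATF3, 1.39% to 1.59% in ATF4, 0.941% to 1.14% in CEBPG and 0.741% to 0.883% in CHOP knockouts, against 0.681% to 1.06% in controls. Of the 13 markers, 3 were higher and 5 lower in ATF3, 7 and 0 in ATF4, 3 and 7 in CEBPG and 1 and 6 in CHOP knockouts. Their part in the values of the 32 genes was not tested.

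**Figure D1:**
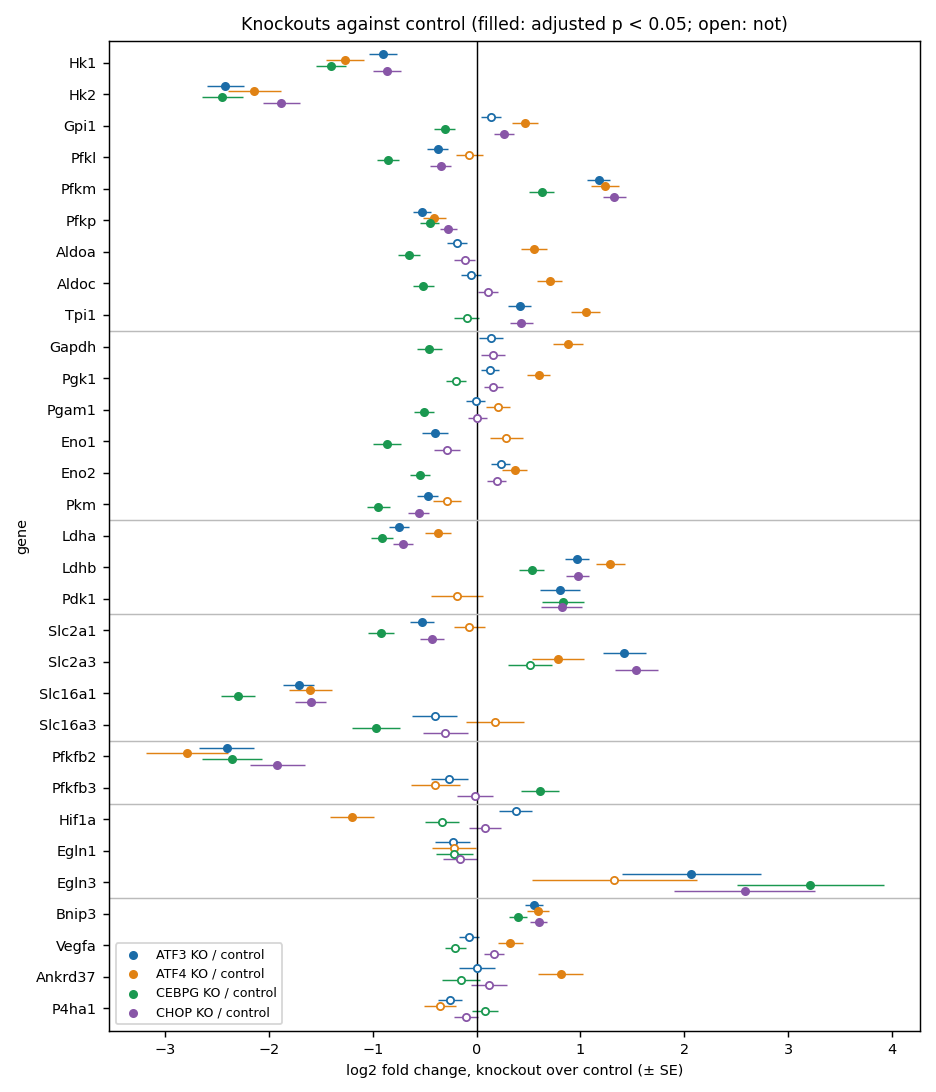
Log2 fold change (± SE) of 31 genes in each knockout over control, ordered by role from hexokinases at the top to HIF targets at the bottom; filled points passed the test and open points did not. Hk2, Slc16a1 and Pfkfb2 lie left of -1.5 in all 4 knockouts, Pfkm, Ldhb and Bnip3 lie right of 0 in all 4, and Adm is left out because it had no read in any CEBPG library.

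**Figure D2:**
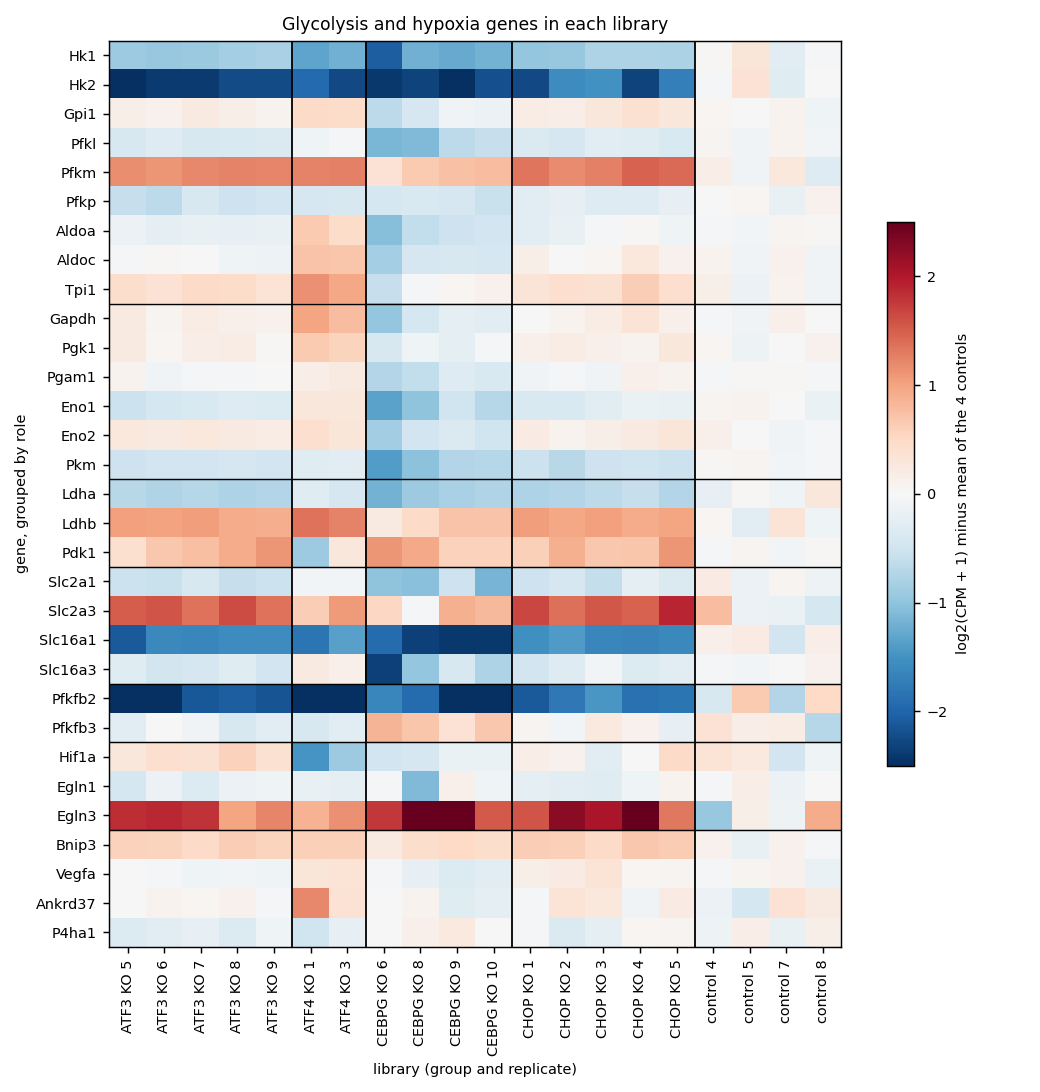
Log2(CPM + 1) of 31 genes in each of the 20 libraries, minus the mean of the 4 controls (red higher, blue lower; colours saturate at the ends of the scale); lines separate groups and roles. Libraries of a group resemble each other for most genes, and CEBPG replicate 6 has the bluest column in the middle of the pathway.

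Hexokinases trap glucose in the cell, and both were lower in all 4 knockouts. Hk2 stood at 24.1, 27.8, 27.9, 31.1 and 31.3 CPM in ATF3, 38.4 and 30.6 in ATF4, 27.4, 29.6, 22.4 and 32.1 in CEBPG and 30.8, 49.6, 51.8, 29.3 and 45.0 in CHOP knockouts. In controls Hk2 was at 146, 193, 122 and 149 CPM. All 16 knockout libraries lay far below the lowest control. The log2 fold changes of Hk2, the inducible isoform (chr6:82725025-82774454 (minus strand), mm10), were -2.42 ± 0.18 in ATF3, -2.14 ± 0.25 in ATF4, -2.45 ± 0.20 in CEBPG and -1.88 ± 0.18 in CHOP knockouts (SE, adjusted p = 3.31e-10 to 1.1e-06). Hk1 was at 525, 515, 521, 549.7 and 565 CPM in ATF3, 398 and 429 in ATF4, 237, 427, 413 and 433 in CEBPG and 503, 510.4, 575, 581 and 573 in CHOP knockouts. In controls Hk1 was at 1002, 1213, 818 and 959 CPM. Every knockout library again lay below every control, and CEBPG replicate 6 was the lowest of all at 237 CPM. For Hk1, the constitutive brain isoform, the log2 fold changes were -0.90 ± 0.13 in ATF3, -1.27 ± 0.19 in ATF4, -1.40 ± 0.15 in CEBPG and -0.86 ± 0.13 in CHOP knockouts (adjusted p = 5.39e-08 to 2.06e-05). The rod marker share was lower in the same libraries, as given above, and its part in these falls was not tested. Within batch 3, Hk1 was lower in CEBPG than in the other two knockouts, at 0.50 ± 0.14 (adjusted p = 0.0103) for ATF3 over CEBPG and -0.54 ± 0.14 (adjusted p = 0.00492) for CEBPG over CHOP. With CEBPG replicates 6 and 8 left out, these were 0.33 (adjusted p = 0.0645) and -0.34 (adjusted p = 0.0422). Hk2 did not differ detectably between ATF3 and CEBPG knockouts (0.03 ± 0.18 (adjusted p = 0.931)), and was lower in CEBPG than in CHOP knockouts (-0.57 ± 0.18 (adjusted p = 0.0207)), which no longer passed without CEBPG 9 or CHOP 2, 3 or 5 (adjusted p = 0.0505 to 0.0802) and without CEBPG 6 and 8 (0.0838).

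The 3 genes of phosphofructokinase, the committed step of glycolysis, split by isoform. Pfkm was at 312, 297, 319.9, 328 and 326 CPM in ATF3, 329 and 331 in ATF4, 179, 218, 230.2 and 238 in CEBPG and 349.9, 317, 333, 387 and 371 in CHOP knockouts. In controls Pfkm was at 155, 130.2, 166 and 110.0 CPM. Every library of every knockout exceeded the highest control. The muscle isoform Pfkm (chr15:98092589-98132451 (plus strand)) thus rose in all 4 knockouts, by 1.18 ± 0.11 in ATF3, 1.24 ± 0.14 in ATF4, 0.63 ± 0.12 in CEBPG and 1.33 ± 0.11 in CHOP knockouts on the log2 scale (adjusted p = 3.67e-09 to 0.000183), least in CEBPG knockouts. Pfkp stood at 467, 444, 531, 489.7 and 503 CPM in ATF3, 525 and 532 in ATF4, 515, 535, 525 and 473 in CEBPG and 573, 605, 558, 557 and 607 in CHOP knockouts. In controls Pfkp was at 709, 726, 616 and 755 CPM. Here every knockout library lay below every control, although by less. The log2 fold changes of the platelet isoform Pfkp were -0.53 ± 0.08 in ATF3, -0.41 ± 0.11 in ATF4, -0.45 ± 0.09 in CEBPG and -0.27 ± 0.08 in CHOP knockouts (adjusted p = 2.47e-05 to 0.0124). The ATF4 call was lost without ATF4 replicate 1 (adjusted p = 0.0568). Pfkl was at 618, 645, 614, 622 and 628 CPM in ATF3, 748 and 798 in ATF4, 367, 374, 512 and 541 in CEBPG and 632, 606, 676, 659 and 619 in CHOP knockouts. In controls Pfkl was at 846, 768, 858 and 777 CPM. The liver isoform Pfkl was below all controls in ATF3, CEBPG and CHOP knockouts, while ATF4 libraries overlapped the controls. Its log2 fold changes were -0.38 ± 0.10 in ATF3, -0.07 ± 0.13 in ATF4, -0.86 ± 0.11 in CEBPG and -0.35 ± 0.10 in CHOP knockouts, and all but ATF4 (adjusted p = 0.735) passed the test (adjusted p = 1.14e-06 to 0.01). Within batch 3, Pfkm was higher in ATF3 than in CEBPG knockouts (0.55 ± 0.11 (adjusted p = 0.000914)) and lower in CEBPG than in CHOP knockouts (-0.70 ± 0.11 (adjusted p = 5.49e-05)), and so was Pfkl (0.48 ± 0.10 (adjusted p = 0.0016) and -0.51 ± 0.10 (adjusted p = 0.000691)). Pfkp did not pass in either (-0.07 ± 0.08 (adjusted p = 0.591) and -0.18 ± 0.08 (adjusted p = 0.116)). Once CEBPG 6 and 8 were left out, Pfkl was at 0.24 (adjusted p = 0.0681) for ATF3 over CEBPG and -0.25 (adjusted p = 0.0467) for CEBPG over CHOP.

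PFKFB enzymes make fructose 2,6-bisphosphate, the activator of phosphofructokinase, and the 2 measured here differed. Pfkfb2 was at 39.5, 39.3, 53.3, 55.6 and 52.0 CPM in ATF3, 32.4 and 41.2 in ATF4, 75.7, 60.9, 35.7 and 27.7 in CEBPG and 54.5, 67.4, 84.9, 63.6 and 65.5 in CHOP knockouts. In controls Pfkfb2 was at 177, 369, 141 and 333 CPM. The highest knockout library, at 84.9 CPM, was below the lowest control, at 141 CPM, and the controls themselves varied from 141 to 369 CPM. Pfkfb2 (chr1:130689182-130729253 (minus strand)) had log2 fold changes of -2.41 ± 0.27 in ATF3, -2.79 ± 0.39 in ATF4, -2.36 ± 0.29 in CEBPG and -1.92 ± 0.26 in CHOP knockouts (adjusted p = 2.03e-07 to 9.37e-06), and it too fell where the rod share fell, whose part was not tested. Pfkfb3 was at 36.4, 43.4, 41.5, 33.2 and 35.8 CPM in ATF3, 33.0 and 36.3 in ATF4, 79.6, 71.8, 56.6 and 71.0 in CEBPG and 46.4, 41.6, 52.2, 47.7 and 38.0 in CHOP knockouts. In controls Pfkfb3 was at 56.5, 49.6, 50.2 and 26.3 CPM. Pfkfb3, the isoform with high kinase activity, was above every control in all CEBPG libraries, and overlapped the controls in the other knockouts. It rose in CEBPG knockouts (0.61 ± 0.19 on the log2 scale, adjusted p = 0.0134), a call lost without control replicate 8 (adjusted p = 0.0742), and did not pass in ATF3 (-0.26 ± 0.18), ATF4 (-0.40 ± 0.23) or CHOP knockouts (-0.02 ± 0.18). Within batch 3, Pfkfb3 went against most of the other genes, with -0.87 ± 0.17 (adjusted p = 0.000815) for ATF3 over CEBPG and 0.63 ± 0.17 (adjusted p = 0.00949) for CEBPG over CHOP. Without CEBPG replicates 6 and 8 these were -0.75 (adjusted p = 0.0189) and 0.53 (adjusted p = 0.0834). Pfkfb2 did not pass between ATF3 and CEBPG (-0.05 ± 0.26) or between CEBPG and CHOP (-0.44 ± 0.27, adjusted p = 0.246), though without CEBPG 6 and 8 the second was at -1.05 (adjusted p = 0.0117).

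The steps from glucose 6-phosphate to triose phosphates were higher in ATF4 and lower in CEBPG knockouts for most genes. Aldoa stood at 3525, 3338, 3435, 3364 and 3398 CPM in ATF3, 6115 and 5313 in ATF4, 1863, 2552, 2705 and 2784 in CEBPG and 3225, 3398, 3774, 3963 and 3586 in CHOP knockouts. In controls Aldoa was at 3785, 3699, 4091 and 3994 CPM. Both ATF4 libraries were above, and all CEBPG libraries below, every control and every ATF3 and CHOP library. Aldoa, the main aldolase, had log2 fold changes of -0.19 ± 0.10 in ATF3, 0.55 ± 0.13 in ATF4, -0.65 ± 0.11 in CEBPG and -0.12 ± 0.10 in CHOP knockouts, of which ATF4 (adjusted p = 0.00164) and CEBPG (adjusted p = 3.36e-05) passed. The ATF4 call was lost without ATF4 replicate 1 (adjusted p = 0.0556). Aldoc was at 645, 667, 657, 607 and 598 CPM in ATF3, 1079.8 and 1059 in ATF4, 362, 489, 495 and 492 in CEBPG and 726, 651, 682, 782 and 711 in CHOP knockouts. In controls Aldoc was at 694, 614, 708 and 614 CPM. The brain aldolase Aldoc showed the same order, with -0.05 ± 0.10 in ATF3, 0.70 ± 0.12 in ATF4, -0.52 ± 0.10 in CEBPG and 0.11 ± 0.10 in CHOP knockouts, and again ATF4 (adjusted p = 9.43e-05) and CEBPG (adjusted p = 0.00029) passed. Gpi1 stood at 984, 962, 1036, 986 and 949 CPM in ATF3, 1244 and 1218 in ATF4, 567, 669, 839 and 808 in CEBPG and 1017, 1004, 1086, 1167 and 1079 in CHOP knockouts. In controls Gpi1 was at 920.0, 879, 945 and 825 CPM. ATF3, ATF4 and CHOP libraries were above every control, and CEBPG libraries overlapped them. Gpi1, glucose phosphate isomerase, was at 0.14 ± 0.10 in ATF3, 0.46 ± 0.12 in ATF4, -0.31 ± 0.10 in CEBPG and 0.26 ± 0.10 in CHOP knockouts. ATF4 (adjusted p = 0.00591), CEBPG (adjusted p = 0.0237) and CHOP (adjusted p = 0.0419) passed, but weakly: the CHOP call was lost with any single library of the pair of groups left out (adjusted p = 0.0505 to 0.192), the CEBPG call without CEBPG 6 or control 7 (0.0698 and 0.0534), and the ATF4 call without ATF4 1 (0.0549). Tpi1 was at 1179.8, 1116, 1197, 1191 and 1094 CPM in ATF3, 1901 and 1695 in ATF4, 576, 841, 893 and 931 in CEBPG and 1087, 1156, 1122, 1326 and 1149.7 in CHOP knockouts. In controls Tpi1 was at 952, 783, 924 and 808 CPM. Triose phosphate isomerase was above every control in ATF3, ATF4 and CHOP libraries. Tpi1 rose in those 3, with log2 fold changes of 0.41 ± 0.11 in ATF3, 1.05 ± 0.14 in ATF4, -0.10 ± 0.12 in CEBPG and 0.43 ± 0.11 in CHOP knockouts (adjusted p = 4.65e-06 to 0.00607), and did not pass in CEBPG knockouts (adjusted p = 0.567).

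All 4 of these genes were lower in CEBPG than in the other knockouts of batch 3, with no overlap between the libraries. ATF3 over CEBPG gave 0.45 ± 0.10 for Gpi1, 0.46 ± 0.10 for Aldoa, 0.47 ± 0.10 for Aldoc and 0.51 ± 0.11 for Tpi1 (adjusted p = 0.00112 to 0.00204). CEBPG over CHOP gave -0.57 ± 0.10, -0.54 ± 0.10, -0.63 ± 0.10 and -0.53 ± 0.11 in the same order (adjusted p = 3.58e-05 to 0.00119). Without CEBPG replicates 6 and 8, Gpi1 no longer passed for ATF3 over CEBPG (0.25, adjusted p = 0.0641), and the other 3 genes passed in both comparisons.

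The lower part of glycolysis, from Gapdh to Pkm, recovers ATP and ends in pyruvate. Gapdh was at 1684, 1516, 1650.0, 1588 and 1561 CPM in ATF3, 2873 and 2466 in ATF4, 738, 1065, 1225 and 1209 in CEBPG and 1459.9, 1546, 1647, 1833 and 1595 in CHOP knockouts. In controls Gapdh was at 1428, 1370.1, 1579 and 1434 CPM. ATF4 libraries were above and CEBPG libraries below all controls. Gapdh, glyceraldehyde 3-phosphate dehydrogenase, had log2 fold changes of 0.14 ± 0.11 in ATF3, 0.88 ± 0.14 in ATF4, -0.46 ± 0.12 in CEBPG and 0.15 ± 0.11 in CHOP knockouts, with adjusted p of 5.54e-05 in ATF4 and 0.00493 in CEBPG knockouts and no call in the others. Pgk1 stood at 442, 395, 427, 434 and 388 CPM in ATF3, 596 and 557 in ATF4, 287, 352, 321 and 367 in CEBPG and 413, 429.5, 418, 406 and 465 in CHOP knockouts. In controls Pgk1 was at 392, 347, 375 and 409 CPM. Phosphoglycerate kinase Pgk1 was called in ATF4 knockouts alone among the 4 comparisons with control (0.60 ± 0.11, adjusted p = 0.000244), and CEBPG libraries overlapped the controls (-0.20 ± 0.09, adjusted p = 0.108). Pgam1 was at 328, 291, 300.0, 303 and 306 CPM in ATF3, 347 and 362 in ATF4, 185, 202, 245 and 235 in CEBPG and 289.7, 301, 289.9, 336 and 329 in CHOP knockouts. In controls Pgam1 was at 298, 316, 316 and 302 CPM. Phosphoglycerate mutase Pgam1 fell in CEBPG knockouts (-0.51 ± 0.10, adjusted p = 0.000208) and was at -0.01 ± 0.09, 0.20 ± 0.12 and 0.01 ± 0.09 in ATF3, ATF4 and CHOP knockouts, none of which passed. Eno1 was at 115, 122, 128, 133 and 131 CPM in ATF3, 203 and 202 in ATF4, 64.6, 82.6, 117 and 101 in CEBPG and 127, 127, 137, 147 and 145 in CHOP knockouts. In controls Eno1 was at 174, 176, 167 and 148 CPM. Enolase 1 was below all controls in ATF3, CEBPG and CHOP knockouts, at -0.40 ± 0.12 (adjusted p = 0.0149), -0.86 ± 0.13 (adjusted p = 1.83e-05) and -0.28 ± 0.13 (adjusted p = 0.0862, not passing). Both ATF4 libraries were above all controls, but the difference did not pass (0.28 ± 0.16, adjusted p = 0.19). Eno2 stood at 820.0, 803, 824, 794 and 774 CPM in ATF3, 917 and 844 in ATF4, 372, 490.4, 533 and 481 in CEBPG and 789, 727, 755, 799.6 and 838 in CHOP knockouts. In controls Eno2 was at 748, 691, 638 and 658 CPM. The neuronal enolase Eno2 was lower than in any other library in all 4 CEBPG libraries. It had log2 fold changes of 0.23 ± 0.09 in ATF3, 0.36 ± 0.12 in ATF4, -0.54 ± 0.10 in CEBPG and 0.19 ± 0.09 in CHOP knockouts, called in CEBPG (adjusted p = 0.000119) and ATF4 knockouts (adjusted p = 0.0206), the ATF4 call being lost without ATF4 1, control 5 or control 8 (adjusted p = 0.0585 to 0.182). Pkm was at 2643, 2689, 2701, 2818 and 2705 CPM in ATF3, 3047 and 3111 in ATF4, 1424, 1841, 2258 and 2287 in CEBPG and 2593, 2313, 2614, 2650.0 and 2595 in CHOP knockouts. In controls Pkm was at 3823, 3932, 3594 and 3701 CPM. All 16 knockout libraries held less Pkm, pyruvate kinase of muscle and brain, than any control. The log2 fold changes of Pkm were -0.47 ± 0.10 in ATF3, -0.29 ± 0.14 in ATF4, -0.95 ± 0.11 in CEBPG and -0.56 ± 0.10 in CHOP knockouts, and all but ATF4 (adjusted p = 0.111) passed (adjusted p = 3.41e-07 to 0.000943). The rod marker share was lower in the same libraries, and its part in the fall of Pkm was not tested.

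Between the knockouts of batch 3, all 6 genes of this stretch were lower in CEBPG knockouts. ATF3 over CEBPG gave 0.78 ± 0.09 for Eno2, 0.59 ± 0.12 for Gapdh, 0.50 ± 0.09 for Pgam1, 0.47 ± 0.10 for Pkm, 0.46 ± 0.13 for Eno1 and 0.33 ± 0.09 for Pgk1 (adjusted p = 2.76e-06 to 0.011). CEBPG over CHOP gave -0.74 ± 0.09, -0.61 ± 0.12, -0.51 ± 0.09, -0.39 ± 0.10, -0.58 ± 0.13 and -0.36 ± 0.09 in the same order (adjusted p = 3.62e-06 to 0.00768). With CEBPG replicates 6 and 8 left out, Eno1 (0.20, adjusted p = 0.254) and Pgk1 (0.27, adjusted p = 0.0754) did not pass for ATF3 over CEBPG, and Eno1 (-0.30, adjusted p = 0.065), Pgk1 (-0.28, adjusted p = 0.052) and Pkm (-0.14, adjusted p = 0.233) did not pass for CEBPG over CHOP. Several of these genes have near-identical processed copies in the genome, among them Gapdh, Pgk1, Pgam1, Eno1, Tpi1, Aldoa, Pkm and Ldha, and the labels do not say how reads shared with copies were assigned, so their levels are uncertain.

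At the branch between lactate and respiration the lactate dehydrogenase subunits moved in opposite directions. Ldha was at 1232, 1182, 1215, 1162 and 1204 CPM in ATF3, 1614 and 1494 in ATF4, 883, 1062, 1139.5 and 1186 in CEBPG and 1172, 1195, 1264, 1329 and 1194 in CHOP knockouts. In controls Ldha was at 1740.4, 2045, 1841 and 2418 CPM. Every knockout library was below every control. Ldha (chr7:46841475-46855627 (plus strand)), the subunit that favours lactate, had log2 fold changes of -0.75 ± 0.10 in ATF3, -0.37 ± 0.13 in ATF4, -0.91 ± 0.10 in CEBPG and -0.71 ± 0.10 in CHOP knockouts (adjusted p = 2.45e-07 to 0.0295). The ATF4 call was lost without ATF4 1, ATF4 3 or control 8 (adjusted p = 0.0567 to 0.195). The rod marker share was lower in the same libraries, and its part in the fall of Ldha was not tested. Ldhb was at 601, 595, 610.4, 568 and 559 CPM in ATF3, 762 and 706 in ATF4, 345, 415, 488 and 486 in CEBPG and 615, 579, 602, 568 and 585 in CHOP knockouts. In controls Ldhb was at 308, 242, 378 and 274 CPM. All ATF3, ATF4 and CHOP libraries were above the highest control, and only CEBPG replicate 6, at 345 CPM, fell within the control range. Ldhb (chr6:142490249-142507957 (minus strand)), the subunit that favours use of lactate, rose by 0.96 ± 0.12 in ATF3, 1.29 ± 0.14 in ATF4, 0.53 ± 0.12 in CEBPG and 0.97 ± 0.12 in CHOP knockouts on the log2 scale (adjusted p = 3.64e-07 to 0.00124). Pdk1 stood at 62.3, 75.9, 80.1, 90.7 and 102 CPM in ATF3, 24.7 and 57.7 in ATF4, 103, 91.8, 70.9 and 71.0 in CEBPG and 72.0, 88.1, 75.8, 76.7 and 103 in CHOP knockouts. In controls Pdk1 was at 46.3, 49.2, 44.8 and 48.4 CPM. Pyruvate dehydrogenase kinase 1, which shuts pyruvate out of the citric acid cycle, was above all controls in every ATF3, CEBPG and CHOP library, while the pair of ATF4 libraries straddled the controls. Pdk1 rose by 0.80 ± 0.19, 0.83 ± 0.20 and 0.82 ± 0.19 in ATF3, CEBPG and CHOP knockouts (adjusted p = 0.00193 to 0.00239) and was at -0.19 ± 0.25 in ATF4 knockouts (adjusted p = 0.61), where it was called lower without ATF4 replicate 3 (-0.93, adjusted p = 0.0166). Within batch 3 Ldhb was lower in CEBPG knockouts, at 0.44 ± 0.11 (adjusted p = 0.00757) for ATF3 over CEBPG and -0.44 ± 0.11 (adjusted p = 0.00521) for CEBPG over CHOP, and neither passed without CEBPG replicates 6 and 8 (0.26, adjusted p = 0.163, and -0.24, adjusted p = 0.161). Ldha and Pdk1 did not pass in either comparison, with Ldha at 0.17 ± 0.10 and -0.21 ± 0.10 and Pdk1 at -0.03 ± 0.19 and 0.02 ± 0.19.

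Of the transporters, Slc16a1 encodes the monocarboxylate carrier MCT1, which moves lactate and pyruvate across the membrane. Slc16a1 was at 68.0, 95.5, 94.7, 98.5 and 98.1 CPM in ATF3, 82.0 and 115 in ATF4, 76.4, 57.7, 54.5 and 54.3 in CEBPG and 101, 109.9, 94.7, 92.1 and 94.9 in CHOP knockouts. In controls Slc16a1 was at 319.6, 337, 210.4 and 328 CPM. The lowest control, replicate 7, held more than any knockout library, the highest of which was at 115 CPM. Slc16a1 (chr3:104638668-104658462 (plus strand)) fell in all 4 knockouts, with log2 fold changes of -1.71 ± 0.15 in ATF3, -1.60 ± 0.21 in ATF4, -2.30 ± 0.16 in CEBPG and -1.60 ± 0.15 in CHOP knockouts (adjusted p = 1.17e-10 to 3.06e-06), and the rod marker share, whose part was not tested, was lower in the same libraries. Slc16a3 stood at 72.1, 64.6, 66.3, 72.0 and 63.5 CPM in ATF3, 105 and 98.2 in ATF4, 16.8, 45.0, 67.7 and 51.8 in CEBPG and 63.8, 71.4, 84.8, 70.4 and 73.0 in CHOP knockouts. In controls Slc16a3 was at 87.1, 84.7, 89.8 and 96.4 CPM. The lactate exporter Slc16a3 (MCT4) was lower than every control in all CEBPG and all ATF3 libraries, with CEBPG replicate 6 lowest at 16.8 CPM. Slc16a3 was above every control in both ATF4 libraries, and CHOP libraries overlapped the controls. It fell in CEBPG knockouts (-0.97 ± 0.23, adjusted p = 0.00201) and did not pass in ATF3 (-0.40 ± 0.22), ATF4 (0.18 ± 0.28) or CHOP knockouts (-0.30 ± 0.22). Slc2a1 was at 186, 185, 206, 182 and 186 CPM in ATF3, 259 and 259.7 in ATF4, 135, 131, 188 and 120.5 in CEBPG and 189.6, 202, 179, 227 and 210.1 in CHOP knockouts. In controls Slc2a1 was at 312, 246, 283 and 248 CPM. Slc2a1 (GLUT1), the broadly used glucose carrier, was below all controls in ATF3, CEBPG and CHOP knockouts and inside their range in ATF4 knockouts. Its log2 fold changes were -0.53 ± 0.12 in ATF3, -0.07 ± 0.15 in ATF4, -0.92 ± 0.12 in CEBPG and -0.43 ± 0.12 in CHOP knockouts, with ATF4 (adjusted p = 0.776) not passing and the others at adjusted p = 2.79e-06 to 0.00528. Slc2a3 was at 257, 265, 229, 276 and 231 CPM in ATF3, 137 and 187 in ATF4, 127, 85.7, 166 and 156 in CEBPG and 286, 233, 262, 248 and 334 in CHOP knockouts. In controls Slc2a3 was at 152, 80.0, 78.6 and 65.2 CPM. Slc2a3 (GLUT3), the neuronal glucose carrier, exceeded every control in all ATF3 and CHOP libraries. Slc2a3 (chr6:122727809-122801640 (minus strand)) had log2 fold changes of 1.42 ± 0.21 in ATF3, 0.78 ± 0.25 in ATF4, 0.51 ± 0.21 in CEBPG and 1.54 ± 0.21 in CHOP knockouts. ATF3 and CHOP passed (adjusted p = 9.54e-06 and 3.13e-06), ATF4 passed (adjusted p = 0.02) but not without ATF4 3 or control 5, 7 or 8 (adjusted p = 0.0502 to 0.25), and CEBPG did not pass (adjusted p = 0.0667) except without CEBPG 8 or control 4 (0.0176 and 0.000873).

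Within batch 3 all 4 transporters were lower in CEBPG than in CHOP knockouts, at -1.02 ± 0.20 for Slc2a3, -0.70 ± 0.15 for Slc16a1, -0.67 ± 0.22 for Slc16a3 and -0.49 ± 0.12 for Slc2a1 (adjusted p = 0.000578 to 0.0258). The Slc16a3 call was lost without CEBPG 8 or CHOP 3 (adjusted p = 0.0508 to 0.0633), and without CEBPG 6 and 8 both Slc16a3 (-0.25, adjusted p = 0.208) and Slc2a1 (-0.35, adjusted p = 0.0842) did not pass. ATF3 over CEBPG gave 0.91 ± 0.20 (adjusted p = 0.00222) for Slc2a3, 0.59 ± 0.15 (adjusted p = 0.00683) for Slc16a1, 0.39 ± 0.12 (adjusted p = 0.0187) for Slc2a1 and 0.57 ± 0.22 (adjusted p = 0.0688), not passing, for Slc16a3. The Slc2a1 call was lost without CEBPG 8 or 10 (adjusted p = 0.0527 to 0.0715), Slc2a3 was at 0.63 (adjusted p = 0.066) and Slc2a1 at 0.28 (adjusted p = 0.201) without CEBPG 6 and 8, and Slc16a3 passed without CEBPG 9 (0.83, adjusted p = 0.00876).

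**Figure D3:**
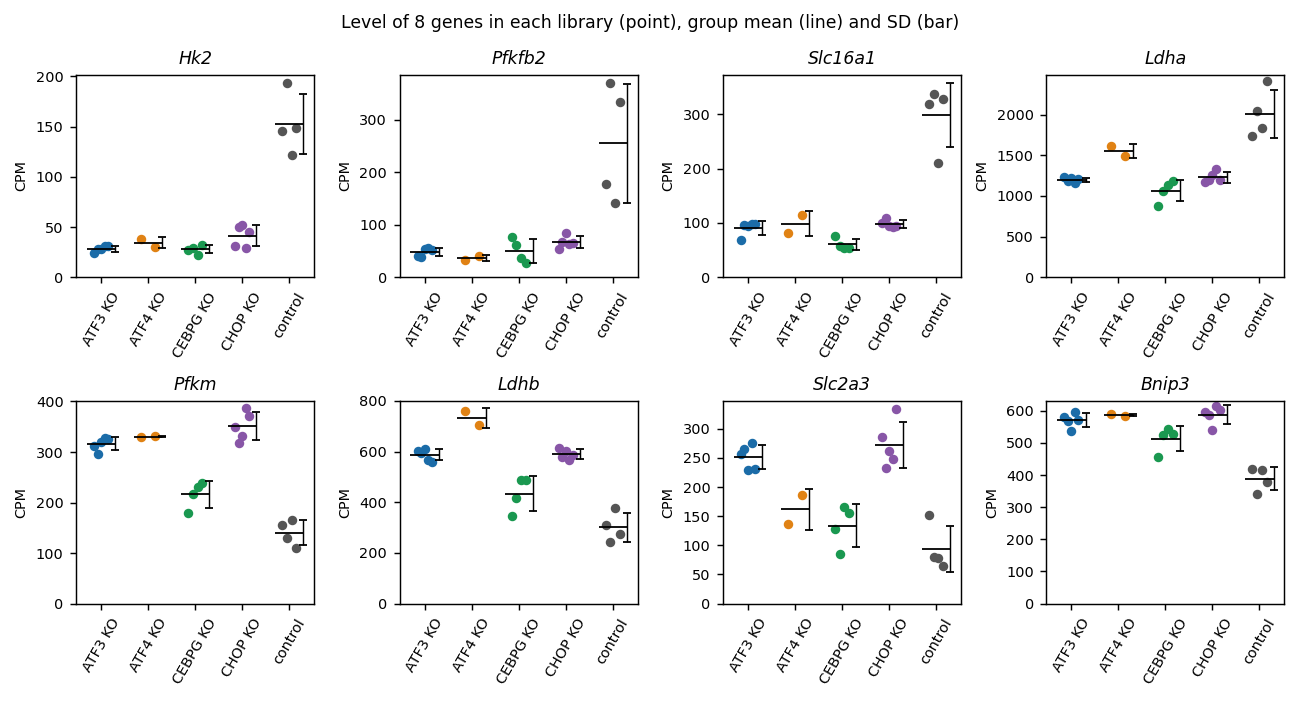
Level in CPM of 8 genes in each library (points), with the group mean (line) and SD (bar), on linear axes from 0. Hk2, Pfkfb2, Slc16a1 and Ldha (top) have every knockout library below the 4 controls, and Pfkm and Bnip3 (bottom) have every knockout library above them, with the CEBPG mean closest to the control mean.

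The transcript of Hif1a, the HIF subunit whose protein is removed when oxygen is present, did not follow the targets in a single direction. Hif1a was at 1124, 1225, 1201, 1363 and 1191 CPM in ATF3, 329 and 491 in ATF4, 659, 684, 819 and 821 in CEBPG and 1027, 993, 754, 921 and 1287 in CHOP knockouts. In controls Hif1a was at 1171, 1087, 656 and 852 CPM. Both ATF4 libraries were below every control, and the controls ranged from 656 to 1171 CPM. Hif1a (chr12:73901375-73947530 (plus strand)) fell in ATF4 knockouts (-1.20 ± 0.21, adjusted p = 0.000138) and did not pass in ATF3 (0.38 ± 0.16, adjusted p = 0.0696), CEBPG (-0.34 ± 0.16, adjusted p = 0.122) or CHOP knockouts (0.08 ± 0.16). It passed in ATF3 knockouts without control 4 (0.50, adjusted p = 0.0225) and in CEBPG knockouts without control 7 (-0.48, adjusted p = 0.0199). Between knockouts, Hif1a was higher in ATF3 than in CEBPG (0.71 ± 0.16 (adjusted p = 0.00217)), with no overlap, and this was 0.56 (adjusted p = 0.0585) without CEBPG 6 and 8. It did not pass between CEBPG and CHOP (-0.42 ± 0.16 (adjusted p = 0.0513)) except without CHOP 3 (-0.49, adjusted p = 0.0247). HIF is controlled mainly through the stability of its protein, which was not measured. Egln3 was at 5.93, 6.09, 5.76, 2.80 and 3.52 CPM in ATF3, 2.52 and 3.24 in ATF4, 5.57, 19.1, 13.3 and 4.59 in CEBPG and 4.76, 8.25, 6.95, 10.6 and 3.83 in CHOP knockouts. In controls Egln3 was at 0, 1.13, 0.765 and 2.68 CPM. The levels of Egln3, a prolyl hydroxylase gene that is itself a HIF target, were low, and every ATF3, CEBPG and CHOP library was above the highest control. The log2 fold changes of Egln3 were 2.07 ± 0.67 in ATF3 (adjusted p = 0.019), 3.21 ± 0.71 in CEBPG (adjusted p = 0.001) and 2.58 ± 0.68 in CHOP knockouts (adjusted p = 0.00453), and 1.33 ± 0.80 without passing in ATF4 knockouts. They rest on 0, 7, 9 and 30 reads in the controls, and the ATF3 call was lost without control 7 (adjusted p = 0.0539). Egln1, the main prolyl hydroxylase, was called in none of the 7 comparisons, with means of 108 ± 10.8 CPM in ATF3, 109 ± 2.82 in ATF4, 109.6 ± 35.2 in CEBPG and 114 ± 12.8 in CHOP knockouts, against 127 ± 11.1 CPM in controls (SD, n = 5, 2, 4, 5 and 4).

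Other HIF targets differed from each other. Bnip3 was at 581, 569, 537, 596 and 570.5 CPM in ATF3, 589 and 584 in ATF4, 455, 526, 544 and 527 in CEBPG and 597, 587, 539, 615 and 603 in CHOP knockouts. In controls Bnip3 was at 418, 341, 417 and 379 CPM. Bnip3, a gene of mitochondrial autophagy, was above every control in all 16 knockout libraries. It rose by 0.55 ± 0.09 in ATF3, 0.59 ± 0.11 in ATF4, 0.40 ± 0.09 in CEBPG and 0.60 ± 0.09 in CHOP knockouts (log2, adjusted p = 6.31e-06 to 0.00108), and did not pass between ATF3 and CEBPG (0.15 ± 0.08) or CEBPG and CHOP (-0.20 ± 0.08). Vegfa was at 148, 144, 136, 141 and 137 CPM in ATF3, 183 and 188 in ATF4, 146, 128, 117 and 124 in CEBPG and 164, 172, 188, 153 and 155 in CHOP knockouts. In controls Vegfa was at 145, 156, 160.4 and 132 CPM. Vegfa, the classical angiogenic HIF target, overlapped the controls in ATF3, CEBPG and CHOP knockouts. Vegfa (chr17:46016993-46032369 (minus strand)) passed in ATF4 knockouts (0.32 ± 0.12, adjusted p = 0.047), a call lost without either ATF4 library or control 4, 5 or 8 (adjusted p = 0.077 to 0.197), and was at -0.07 ± 0.10, -0.21 ± 0.10 and 0.17 ± 0.10 in ATF3, CEBPG and CHOP knockouts. Between CEBPG and CHOP it was lower in CEBPG (-0.37 ± 0.10 (adjusted p = 0.00538)), as it was without CEBPG 6 and 8 (-0.44, adjusted p = 0.00736). P4ha1 was at 85.7, 88.9, 94.1, 85.6 and 101 CPM in ATF3, 76.4 and 94.0 in ATF4, 108, 118, 128 and 107 in CEBPG and 104, 84.4, 92.8, 112 and 113 in CHOP knockouts. In controls P4ha1 was at 99.3, 121, 95.0 and 121 CPM. The collagen prolyl hydroxylase gene P4ha1 passed in no comparison with control, and was lower in ATF3 than in CEBPG knockouts (-0.34 ± 0.12 (adjusted p = 0.0422)), a call lost without any of 6 single libraries (adjusted p = 0.0644 to 0.124) and without CEBPG 6 and 8 (0.0803). Ankrd37 averaged 48.7 ± 2.21 CPM in ATF3, 85.2 ± 34.5 in ATF4, 43.9 ± 6.09 in CEBPG and 52.7 ± 6.83 in CHOP knockouts, against 48.5 ± 12.1 CPM in controls (SD), and was called in ATF4 knockouts (0.81 ± 0.22, adjusted p = 0.00677), a call lost without ATF4 replicate 1 (adjusted p = 0.431). Adm stood at 1.28, 0.129, 1.70, 2.15 and 2.93 CPM in ATF3, 1.21 and 1.62 in ATF4, 0, 0, 0 and 0 in CEBPG and 0, 0, 0, 0 and 1.33 in CHOP knockouts. In controls Adm was at 0, 0.648, 0.510 and 1.25 CPM. Adm, which encodes the vasodilator adrenomedullin, had no read in any CEBPG library and reads in only 1 CHOP library, replicate 5. Taking 3 reads for the whole CEBPG group as the floor, Adm was at least 42.9-fold higher in ATF3 than in CEBPG knockouts (adjusted p = 0.0168) and at least 15.8-fold lower in CEBPG knockouts than in controls (adjusted p = 0.0288). The controls hold 0, 4, 6 and 14 reads, and the second call was lost without CEBPG 8, 9 or 10 or control 8 (adjusted p = 0.0505 to 0.0623). Without CEBPG 6 and 8 neither passed (adjusted p = 0.0787 and 0.0897). Without CHOP replicate 5, Adm was called lower in CHOP knockouts than in controls (adjusted p = 0.00883) and higher in ATF3 than in CHOP knockouts (adjusted p = 0.0322).

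The split between isoforms was read as the share of each paralog in the summed level of its family, with CPM divided by exon length (CPM per kb) so that genes of unequal length can be set side by side. These shares rest on the same counts as the tests above and carry no test of their own. The rod marker share was lower in all knockouts, and its part in the paralog shares was not tested. Ldhb made up 50.8% ± 0.813 in ATF3, 49.9% ± 0.0114 in ATF4, 46.0% ± 1.11 in CEBPG and 50.3% ± 1.87 in CHOP knockouts, against 24.2% ± 5.38 in controls (SD). Pfkm made up 42.1% ± 0.916 in ATF3, 38.9% ± 0.751 in ATF4, 38.0% ± 1.72 in CEBPG and 43.1% ± 1.94 in CHOP knockouts, against 19.3% ± 2.62 in controls. In both families no knockout library fell within the control range. Hk2 made up 7.05% ± 0.520 in ATF3, 10.7% ± 2.05 in ATF4, 9.99% ± 2.96 in CEBPG and 9.70% ± 2.28 in CHOP knockouts, against 17.9% ± 0.602 in controls, and again no knockout library reached the lowest control, at 17.2%. Slc2a3 made up 39.2% ± 2.92 in ATF3, 23.1% ± 3.82 in ATF4, 31.0% ± 5.97 in CEBPG and 39.5% ± 4.04 in CHOP knockouts, against 14.0% ± 3.52 in controls, and all knockout libraries exceeded the highest control, at 19.0%. Slc16a1 made up 61.5% ± 4.80 in ATF3, 53.4% ± 6.98 in ATF4, 62.5% ± 15.4 in CEBPG and 62.0% ± 3.33 in CHOP knockouts, against 79.6% ± 3.99 in controls, and 1 CEBPG library, at 84.5%, lay above the controls. Aldoc, by contrast, made up 14.2% ± 0.622 in ATF3, 14.4% ± 1.05 in ATF4, 14.3% ± 0.531 in CEBPG and 15.0% ± 1.04 in CHOP knockouts, against 13.1% ± 0.841 in controls, so the aldolases kept nearly the same proportions while their levels differed. By CPM per kb the most abundant of the 32 genes in controls were Aldoa (1337 ± 62.3), Pkm (752 ± 29.3) and Ldha (608 ± 90.5). All 32 genes together held 1.88% ± 0.0237 of reads in ATF3, 2.37% ± 0.0458 in ATF4, 1.44% ± 0.154 in CEBPG and 1.92% ± 0.0748 in CHOP knockouts, against 2.05% ± 0.0173 in controls.

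**Figure D4:**
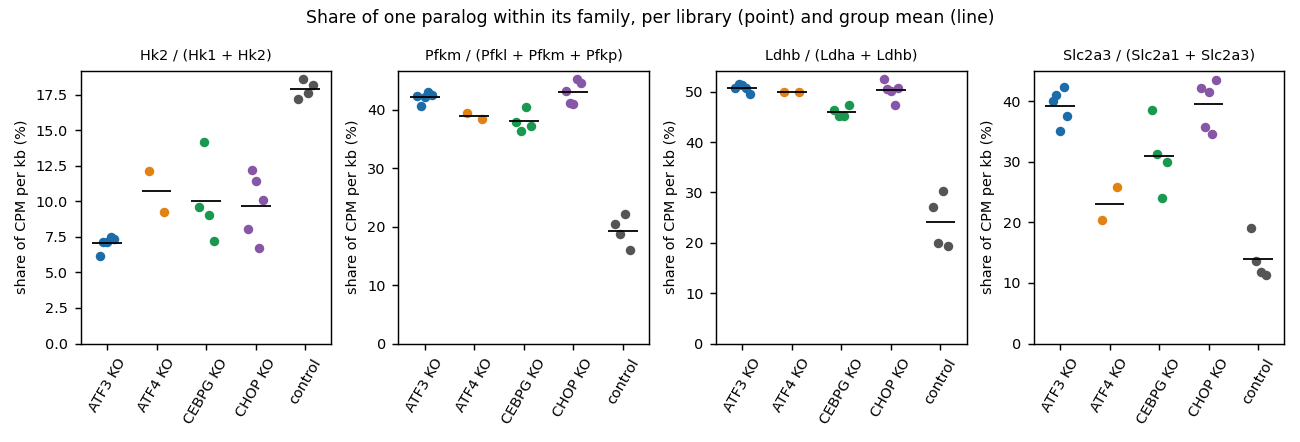
Share of one paralog in the summed CPM per kb of its family, in percent, for each library (points) and as the group mean (line), on linear axes from 0. Ldhb is near 50% in ATF3, ATF4 and CHOP knockouts and at 46.0% in CEBPG knockouts, against 24.2% in controls; Pfkm and Slc2a3 shift the same way and Hk2 the other way.

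The comparisons inside batch 3, where batch and sex are shared, asked how the glycolysis and hypoxia genes differed between the knockouts themselves. CEBPG knockouts stood apart: 19 of the 32 genes were higher in ATF3 than in CEBPG knockouts (59.4%, where 10.1% of all genes were higher) and 2, Pfkfb3 and P4ha1, were lower (6.25%, against 10.2% of all). The median log2 fold change of ATF3 over CEBPG was 0.45, against -0.0042 over all genes. Of the 32, 20 were lower in CEBPG than in CHOP knockouts (62.5%, against 13.2% of all genes) and 1, Pfkfb3, was higher (3.12%, against 13.5%), with a median of -0.50 against -0.03 over all genes. The 17 genes lower in CEBPG than in both ATF3 and CHOP knockouts were Hk1, Gpi1, Pfkl, Pfkm, Aldoa, Aldoc, Tpi1, Gapdh, Pgk1, Pgam1, Eno1, Eno2, Pkm, Ldhb, Slc2a1, Slc2a3 and Slc16a1. Both comparisons use the same CEBPG libraries, so they are not independent. The share of all tested genes lower in CEBPG knockouts in both comparisons is not given here. CEBPG replicate 6 was the lowest of all 20 libraries for 14 of the 32 genes. The same count over all tested genes was not made, so this number has no background beside it. Once CEBPG 6 and 8 were left out, 9 genes were higher in ATF3 and 14 lower in CEBPG than in CHOP knockouts, and the medians were 0.26 and -0.33. Of the 32 values for ATF3 over CEBPG, 27 were then positive, where 25 were with all libraries, and of those for CEBPG over CHOP 28 were negative in either case. Both calls were kept then by 8 genes, Pfkm, Aldoa, Aldoc, Tpi1, Gapdh, Pgam1, Eno2 and Slc16a1. Of the cell markers, those of T and NK lymphocytes held 0.0300% ± 0.00197 of reads in ATF3, 0.188% ± 0.0354 in CEBPG and 0.0348% ± 0.00691 in CHOP knockouts, against 0.00253% ± 0.000864 in controls. Microglial markers held 0.744% ± 0.0317 of reads in ATF3, 0.981% ± 0.0635 in CEBPG and 0.587% ± 0.100 in CHOP knockouts, against 0.704% ± 0.153 in controls, and cone markers 0.238% ± 0.0147, 0.162% ± 0.0384 and 0.215% ± 0.0172, against 0.464% ± 0.0827. Bipolar markers held 0.191% ± 0.0101 in ATF3, 0.0649% ± 0.0176 in CEBPG and 0.0842% ± 0.0112 in CHOP knockouts. Amacrine markers held 0.600% ± 0.0115 in ATF3, 0.390% ± 0.0352 in CEBPG and 0.746% ± 0.0480 in CHOP knockouts. Of the 12 amacrine markers, 8 were higher and 0 lower in ATF3 than in CEBPG knockouts. In CEBPG against CHOP knockouts 0 of them were higher and 9 lower. Müller glia markers held 1.37% ± 0.0658 in ATF3, 1.07% ± 0.0898 in CEBPG and 0.818% ± 0.0621 in CHOP knockouts, against 0.848% ± 0.177 in controls. By gene, 8 of these 13 markers were higher and 2 lower in ATF3 than in CEBPG knockouts, and 3 were higher and 8 lower in CEBPG than in CHOP knockouts, so their summed share and most of their genes differed in opposite directions between CEBPG and CHOP knockouts. The 12 ganglion cell markers went both ways, with 4 higher and 4 lower in ATF3 than in CEBPG knockouts (median 0.33) and 2 higher and 3 lower in CEBPG than in CHOP knockouts (median 0.16). Rod markers held 0.477% ± 0.0127 in ATF3, 0.486% ± 0.115 in CEBPG and 0.822% ± 0.160 in CHOP knockouts. Of the 15 rod markers, 0 were higher and 1 lower in ATF3 than in CEBPG knockouts. In CEBPG against CHOP knockouts 0 rod markers were higher and 12 lower. The part of any of these cell types in the lower glycolytic levels was not tested.

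**Figure D5:**
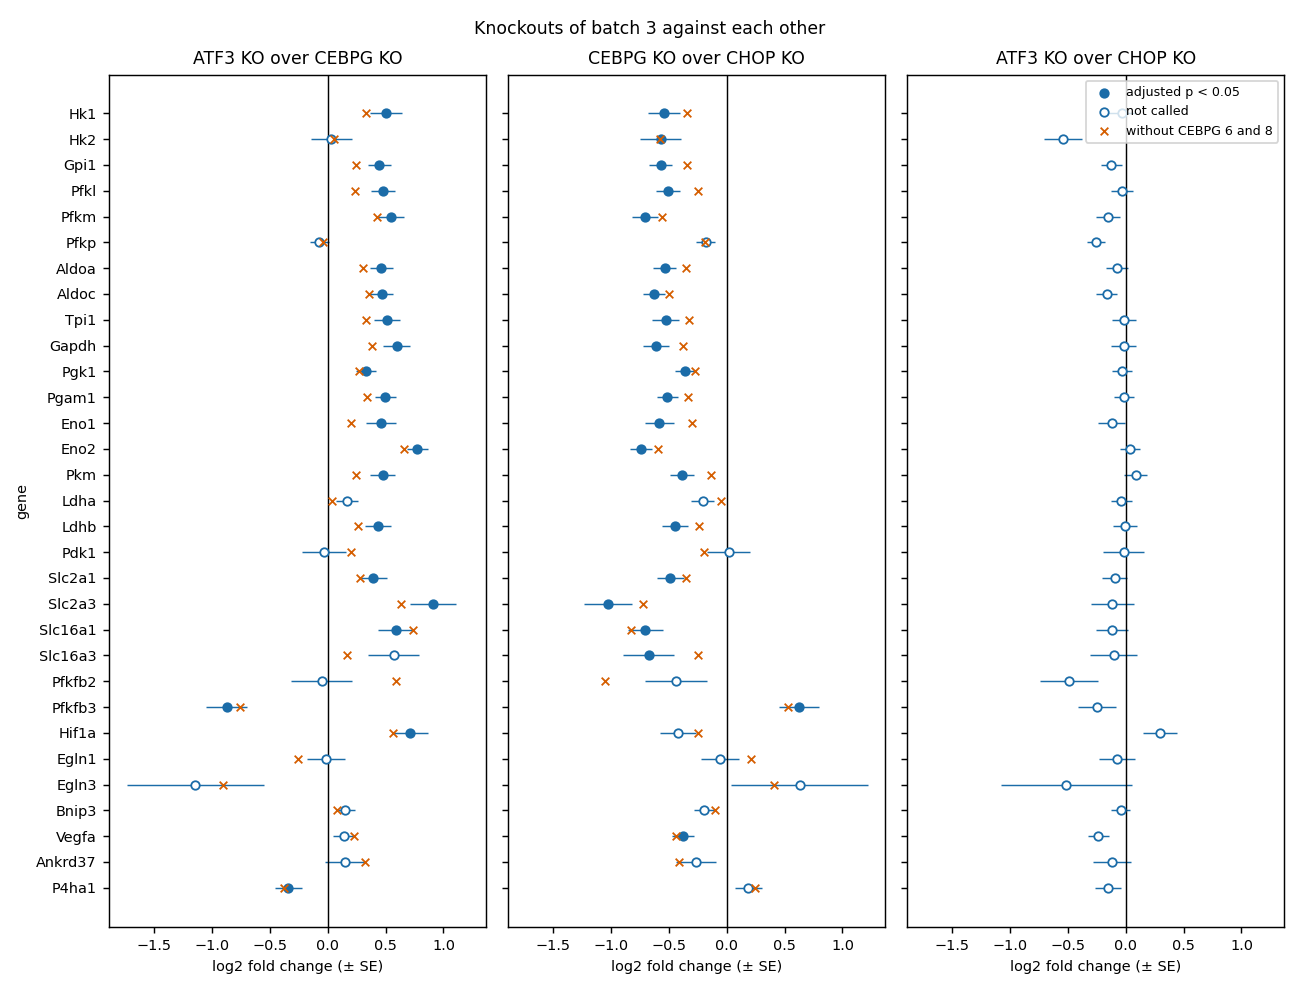
Log2 fold change (± SE) of 31 genes between the knockouts of batch 3; filled points passed the test, open points did not, and crosses are the values without CEBPG replicates 6 and 8. Most genes from Hk1 to Slc16a3 lie right of 0 for ATF3 over CEBPG and left of 0 for CEBPG over CHOP, and the crosses lie nearer 0 for most. Most values of ATF3 over CHOP lie closer to 0, with Hk2 (-0.54), Egln3 (-0.51) and Pfkfb2 (-0.49) the farthest from it.

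Between ATF3 and CHOP knockouts, 0 of the 32 genes passed in either direction (1.51% of all genes were higher and 0.756% lower). By unadjusted p, 3 were under 0.05 (Hk2, Pfkp and Vegfa), the smallest adjusted p was 0.1, and DESeq2 called 2, Hk2 and Pfkp (adjusted p = 0.0471 and 0.00937). Hk2 was at -0.54 ± 0.17 (95% interval -0.90 to -0.18), Pfkp at -0.25 ± 0.08 (-0.42 to -0.09) and Vegfa at -0.24 ± 0.09 (-0.43 to -0.04). For the enzymes Aldoa, Gapdh and Pkm the 95% intervals of the difference were -0.27 to 0.13, -0.24 to 0.21 and -0.12 to 0.29, each of which included 0. For genes of low level the intervals were wide, such as -1.71 to 0.69 for Egln3.

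Genes of the neighbouring pathways, from lists that were also chosen with earlier results of these data known, put these values in context. Of 41 further genes of the HIF pathway, 7 rose and 6 fell in ATF3, 7 and 8 in ATF4, 7 and 11 in CEBPG and 7 and 6 in CHOP knockouts against control, with medians of 0.07, -0.07, -0.22 and -0.08. The shares higher were 17.1% in each, and the shares lower were 14.6% in ATF3, 19.5% in ATF4, 26.8% in CEBPG and 14.6% in CHOP knockouts. Over all tested genes 18.6% were higher and 14.8% lower in ATF3, 16.6% and 14.6% in ATF4, 18.3% and 15.0% in CEBPG and 18.1% and 15.4% in CHOP knockouts, so the counts were near the background except those lower in CEBPG knockouts and, by less, in ATF4 knockouts, and the lists below are to be read against the same shares. Ndrg1, a gene induced by hypoxia, was lower in all 4, at -2.65, -2.33, -3.09 and -2.87 on the log2 scale, and Epas1, which encodes HIF2A, was at -2.96, -1.82, -3.37 and -2.41 in the same order. Stc1, a secreted glycoprotein gene, rose in all 4 (1.56, 1.67, 1.19 and 2.63), and Hmox1, haem oxygenase 1, rose in ATF3 (1.19 ± 0.18) and CEBPG knockouts (2.13 ± 0.19). Hmox1 was also higher in CEBPG than in CHOP knockouts (2.53 ± 0.17) and in ATF3 than in CHOP knockouts (1.58 ± 0.16). Of 23 further glycolytic genes and transporters, 3 rose and 2 fell in ATF3, 2 and 0 in ATF4, 3 and 5 in CEBPG and 4 and 6 in CHOP knockouts (13.0% and 8.70%, 8.70% and 0%, 13.0% and 21.7%, and 17.4% and 26.1%). The inositol carrier Slc2a13 rose in ATF3 (2.03 ± 0.39) and CHOP knockouts (2.55 ± 0.40), Bsg, the partner of MCT1 at the membrane, rose in ATF4 (0.63 ± 0.12) and fell in CEBPG knockouts (-0.49 ± 0.10), and Hk3, the hexokinase of myeloid cells, fell in ATF3 (-0.92 ± 0.29) and CHOP knockouts (-1.15 ± 0.29). The glucose carrier Slc2a8 fell in ATF3 (-0.66 ± 0.15), CEBPG (-0.71 ± 0.16) and CHOP knockouts (-0.60 ± 0.15), and Bpgm, bisphosphoglycerate mutase, fell in CEBPG (-0.83 ± 0.13) and CHOP knockouts (-0.50 ± 0.12). Among 29 genes of pyruvate entry and the citric acid cycle 2 rose and 1 fell in ATF3, 8 and 4 in ATF4, 2 and 7 in CEBPG and 1 and 3 in CHOP knockouts (6.90% and 3.45%, 27.6% and 13.8%, 6.90% and 24.1%, and 3.45% and 10.3%). The mitochondrial pyruvate carrier genes Mpc1 and Mpc2 rose in ATF4 knockouts (1.14 ± 0.15 and 0.97 ± 0.14), and Pdhb, of pyruvate dehydrogenase, fell in all 4 (-0.46, -0.36, -0.54 and -0.49). Of these 29 genes, 10 were higher (34.5%, against 10.1% of all genes) and 0 lower (against 10.2%) in ATF3 than in CEBPG knockouts, led by Got1 (0.70 ± 0.12) and Got2 (0.48 ± 0.10), and 7 were lower (24.1%, against 13.2%) and 0 higher (against 13.5%) in CEBPG than in CHOP knockouts. Of 8 genes of the pentose phosphate pathway, 2, 2, 2 and 1 rose (25%, 25%, 25% and 12.5%) and 0, 1, 0 and 0 fell (0%, 12.5%, 0% and 0%) in ATF3, ATF4, CEBPG and CHOP knockouts. Among them transketolase (Tkt) rose by 1.33 ± 0.12, 1.37 ± 0.15, 0.67 ± 0.13 and 1.51 ± 0.12 in that order. Of 15 genes of gluconeogenesis and glycogen, 3, 3, 0 and 3 rose (20%, 20%, 0% and 20%) and 0, 1, 2 and 1 fell (0%, 6.67%, 13.3% and 6.67%) in the same order, and Pygm, muscle glycogen phosphorylase, fell in CEBPG (-1.36 ± 0.23) and CHOP knockouts (-1.11 ± 0.21).

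The authors' deposited table, made with a model that the labels do not describe, calls fewer of the 32 genes in 3 of the knockouts. Its comparison group is not stated either and was taken here as the controls. At an FDR below 0.05, the authors' deposited table has 3 higher and 7 lower in ATF3, 2 and 5 in ATF4, 4 and 20 in CEBPG and 3 and 4 in CHOP knockouts. In the authors' deposited table, 8, 6, 21 and 7 of these were called in the same direction as here, and 0 were called in opposite directions. In ATF4 knockouts it calls 2 genes higher, where 13 were called higher here. It does not call Gpi1 (0.09), Aldoc (0.34), Tpi1 (0.52) or Gapdh (0.21) in ATF4 knockouts. Aldoa, called higher in ATF4 knockouts here (0.55), is at -0.06 there and not called.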

How the data were processed

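Gene expression was measured by RNA sequencing of sorted mouse retinal ganglion cells, with SMART-Seq libraries per the labels' protocols. The submitters' processing notes name mm10 as the build and list STAR, Picard, HTSeq and edgeR with no versions, and no label gives the annotation, the strand setting or the treatment of shared reads. The authors deposited raw read counts per gene, and a table of log2 fold changes (taken as log2) with p-values and FDR, whose model no label describes. The deposited sheet gave sex, batch and age, and 43 further columns of per-sample values in it were not used.

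Groups follow the sample titles, and 1 library titled as a control but labelled with a CHOP knockout genotype entered no group. The genes, lists, roles and named-gene rule were chosen with earlier results of these data known. Values in every library are given for genes called in 3 or 4 comparisons with control or in a comparison within batch 3, and for Hif1a and Vegfa. From each further pathway list the genes named are among the 3 called genes of smallest adjusted p in a direction and comparison, not all of which are named, and a named gene may be given in further comparisons.

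The deposited counts were tested with edgeR 4.0.16 (R 4.3.3). After filterByExpr with min.count 10, which removed 367 genes and left 16797, TMM factors were computed. A single robust glmQLFit model of 20 libraries had 15 residual degrees of freedom and a biological coefficient of variation of 0.407, and 7 contrasts were tested with glmQLFTest, two-sided. Calls are at an adjusted p below 0.05 (Benjamini-Hochberg over all tested genes), and every adjusted p is from edgeR unless DESeq2 (1.42.0) is named. SE is the log2 fold change divided by the square root of F. Intervals of 95% use 15 degrees of freedom. The floor of 3 reads covers counting error only, as reads were not tied to molecules. Exon lengths and coordinates are from GENCODE M21. The step was tested on simulated counts. Any pair of libraries of 1 group differed beyond counting noise (chi-square per gene 12.9 to 64.6, genes with at least 20 reads), so none was a copy. Alternatives were DESeq2, no filter, 2 groups per fit, a replicate block, the ungrouped library as a control, and libraries left out.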

Additional observations from a re-analysis of the deposited data

Results flagged for a closer look

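In groups of 4 or 5 libraries the highest or lowest library was set against the rest of its group for each gene, and 8 of 127 such values stood apart, 6.3%, where chance gives about 1 in 20. CEBPG replicate 6 accounts for 3 of them. It had 237 CPM of Hk1, where the other CEBPG libraries had 413 to 433 CPM, and 362 CPM of Aldoc, where the others had 489 to 495 CPM. It was also the highest CEBPG library for Slc16a1, at 76.4 CPM, where the others had 54.3 to 57.7 CPM. Slc16a1 was low in ATF3 replicate 5, at 68.0 CPM against 94.7 to 98.5 CPM in the other ATF3 libraries, and in control replicate 7, at 210.4 CPM against 319.6 to 337 CPM in the other controls. CHOP replicate 2 had 2313 CPM of Pkm, where the other CHOP libraries had 2593 to 2650 CPM. ATF3 replicate 7 had 206 CPM of Slc2a1, where the others had 182 to 186 CPM. CHOP replicate 5 was the only CHOP library with reads of Adm, at 1.33 CPM, and the other 4 had 0.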

How the results depend on the processing

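No gene changed the sign of a call under any alternative. Same-numbered libraries of different groups did not deviate together (12 pairs, r from -0.048 to 0.026), so the numbers do not pair the libraries. With a replicate block, 4 genes were higher and 4 lower in ATF4, 3 higher in CEBPG and 5 higher in CHOP knockouts, 1 was lower in ATF3 than in CEBPG, and 0 were higher and 0 lower in CEBPG than in CHOP knockouts. Over all genes the block called 1322 (ATF4), 3081 (CEBPG), 2719 (CHOP), 1895 (ATF3 over CEBPG), 11 (ATF3 over CHOP) and 517 (CEBPG over CHOP), against 5251, 5608, 5625, 3419, 380 and 4478. Without CEBPG 6 and 8, 9 genes were higher and 1 lower in ATF3 than in CEBPG, and 0 higher in CEBPG than in CHOP knockouts. For ATF3 over CHOP, DESeq2 and a fit of the 2 groups alone each called 2 genes lower (681 and 1232 over all genes). With single libraries left out the counts of higher and lower genes ran from 6 to 9 and 10 to 11 in ATF3, 8 to 12 and 5 to 8 in ATF4, 5 to 7 and 17 to 19 in CEBPG, 7 and 9 to 10 in CHOP, 18 to 20 and 1 to 2 for ATF3 over CEBPG, 0 to 1 and 0 for ATF3 over CHOP, and 1 and 19 to 20 for CEBPG over CHOP. Over all genes, ATF4 had 3358 calls without replicate 1, and ATF3 over CHOP 245 without ATF3 9 and 232 without CHOP 4. The cause of these changes was not tested. Libraries were not left out for the further pathway lists. ATF4 rests on 2 libraries, the controls are the shallowest group, and Adm and Egln3 rest on few reads.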

Other observations

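The library that entered no group, with a control title, a CHOP knockout genotype and a male mouse of batch 4, is reported as values and in no comparison. It had 33665965 counted reads, and rod markers held 0.836% of them. Ganglion cell markers held 0.0266%, below the lowest CEBPG library, at 0.0474%. Of the 32 genes, 12 lay within the range of the 4 controls, 13 above the highest control and 7 below the lowest. The same counts over all genes were not made, so these have no background beside them. Hk2 was at 129 CPM in it, Slc16a1 at 299.5 CPM, Pfkm at 161 CPM, Ldhb at 296 CPM and Bnip3 at 369 CPM, all inside the control range. Ldha was at 1449 CPM, where the lowest control had 1737 CPM with the same scaling, and Pfkfb2 was at 67.0 CPM, where the lowest control had 141 CPM. Pfkfb3 was at 92.2 CPM, where the highest control had 56.4 CPM.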
